A study of Drosophila melanogaster with 2 samples.

Results

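The odorant receptor (Or), gustatory receptor (Gr), ionotropic receptor (Ir) and odorant-binding protein (Obp) genes of Drosophila melanogaster were followed across a map of chromatin bound by CG7786-eGFP. The genes were selected by a naming rule that uses no measured value, in a group proposed with earlier results of these data known: every protein-coding gene whose symbol starts with Or, Gr, Ir or Obp followed by its cytological number. The rule took 230 of 13945 protein-coding genes, 59 Or, 60 Gr, 60 Ir and 51 Obp genes. Orco, the shared odorant co-receptor, and lush, an odorant-binding protein gene, carry names outside the rule and were read with the pathway lists.

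The map came from chromatin immunoprecipitation and sequencing (ChIP-seq) of whole embryos collected 0 to 24 h after egg laying, with both sexes pooled. The flies carried a transgene for CG7786, a predicted PAR-type basic leucine zipper factor, with green fluorescent protein at its C terminus. The labels name GFP in one field and CG7786 in another as the antibody's target, so the antibody is not settled here. There are 2 libraries of 1 group, replicates 2 and 3, with sonicated fragments of 200 to 800 bp, no second condition, and no statement of how separate the 2 collections were. The files hold peak lists and not reads, so the depth is unknown. Whole embryos mix all tissues, and the sensory neurons and their support cells are a small part of them, so binding in those cells alone and its absence cannot be told apart here.

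Or and Gr proteins are seven-transmembrane ion channels and Ir proteins are relatives of ionotropic glutamate receptors. Each olfactory neuron typically expresses 1 or a few of them, together with a co-receptor in the Or and Ir families, and this choice sets what the neuron detects. Obp proteins are small secreted proteins made largely by support cells, and they fill the lymph around the sensory dendrites. Most members serve the adult antenna, palp, labellum and legs, while a smaller set serves the larva, whose sense organs form late in embryogenesis.

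The main list is the authors' list of 4045 peaks after the irreproducible discovery rate (IDR) procedure, and the relaxed lists hold 30000 entries each for the pooled reads, replicate 2 and replicate 3. A gene counted at its transcription start site (TSS) when a summit, the base of highest signal in a peak, lay within 500 bp of any annotated TSS. It counted in its span when a summit lay in the gene body or the 2000 bp upstream. A summit near several genes counted for each, and a summit in a span may belong to another gene. Signal values are the authors' score on a scale of each list's own, so lists are set side by side by rank, with rank 1 the strongest.

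Sequences are shown for summits that the results turn on and for 1 promoter with no summit in any list. Each is from the Release 6 (dm6) genome, in lower case, with matches to the searched motifs in capitals. The first 4 are windows of 201 bp on the plus strand around IDR summits: Obp99b (3R:29717023-29717223) and Obp99c (3R:29690605-29690805), the only members with an IDR summit nearest to their own TSS, Or88a (3R:14108596-14108796), an odorant receptor gene for fly odours, and Gr5a (X:5679062-5679262), the trehalose receptor gene. The next 2 are windows of the same size around pooled relaxed entries at Obp83cd (3R:6107831-6108031) and Obp83g (3R:6112475-6112675). The last is the promoter of Or67d (3L:10272954-10273253, plus strand, from 250 bp before the TSS), the receptor gene for the male pheromone cis-vaccenyl acetate.
Obp99b: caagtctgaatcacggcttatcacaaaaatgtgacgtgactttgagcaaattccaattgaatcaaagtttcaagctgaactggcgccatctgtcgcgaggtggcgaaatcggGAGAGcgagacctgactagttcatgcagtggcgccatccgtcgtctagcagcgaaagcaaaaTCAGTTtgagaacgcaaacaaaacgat
Obp99c: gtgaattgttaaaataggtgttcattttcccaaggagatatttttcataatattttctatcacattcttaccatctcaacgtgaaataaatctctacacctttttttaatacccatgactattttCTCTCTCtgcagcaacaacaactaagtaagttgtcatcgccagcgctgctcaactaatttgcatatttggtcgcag
Or88a: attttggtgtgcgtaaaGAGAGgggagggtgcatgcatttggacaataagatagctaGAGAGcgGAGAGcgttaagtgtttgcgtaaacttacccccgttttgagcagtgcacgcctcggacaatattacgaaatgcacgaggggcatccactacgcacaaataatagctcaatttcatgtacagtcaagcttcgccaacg
Gr5a: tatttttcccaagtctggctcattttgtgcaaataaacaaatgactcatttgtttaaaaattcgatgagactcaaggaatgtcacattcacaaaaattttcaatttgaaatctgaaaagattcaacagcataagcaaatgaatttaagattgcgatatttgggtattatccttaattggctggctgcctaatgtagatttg
Obp83cd: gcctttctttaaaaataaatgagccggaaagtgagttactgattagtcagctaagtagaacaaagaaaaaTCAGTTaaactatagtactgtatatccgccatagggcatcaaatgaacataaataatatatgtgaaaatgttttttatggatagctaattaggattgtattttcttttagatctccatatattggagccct
Obp83g: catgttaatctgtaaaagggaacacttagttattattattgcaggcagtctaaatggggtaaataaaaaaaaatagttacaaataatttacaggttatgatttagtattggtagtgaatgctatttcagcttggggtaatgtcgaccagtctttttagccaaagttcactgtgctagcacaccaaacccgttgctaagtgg
Or67d: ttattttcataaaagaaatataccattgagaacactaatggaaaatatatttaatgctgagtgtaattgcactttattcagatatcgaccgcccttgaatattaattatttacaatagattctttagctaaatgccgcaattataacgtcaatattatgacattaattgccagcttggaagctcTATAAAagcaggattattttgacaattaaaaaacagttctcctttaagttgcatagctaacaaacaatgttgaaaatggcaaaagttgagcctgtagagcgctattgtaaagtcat
In the Obp99b window the capitals mark GAGAG, the core of the GAGA factor site, and TCAGTT, an initiator sequence. This TCAGTT is on the plus strand, opposite to the strand of Obp99b. The Or88a window holds GAGAG 3 times, and the Obp99c window holds its reverse complement CTCTC 2 times in overlapping copies. The Gr5a and Obp83g windows hold none of the 8 motifs searched, and the Obp83cd window holds TCAGTT. Of all 4045 IDR windows of this length, 23.4% hold GAGAG and 13.1% hold TCAGTT on either strand. The capitals in the Or67d promoter mark TATAAA, found on the gene's own strand in 32.1% of all promoters. The printed sequence has ATG at the annotated TSS of Or67d, so its window appears to be placed from the start codon. Where the Or67d transcript begins was not measured.

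Few chemosensory genes carried a summit. Of the 230 members, 3 (1.3%) had an IDR summit within 500 bp of a TSS, against 19.5% of all protein-coding genes. The 3 were Ir60e, Obp99b and Gr63a, so the families stood at 0 of 59 Or, 1 of 60 Gr, 1 of 60 Ir and 1 of 51 Obp genes. In the wider span 9 members (3.91%) had an IDR summit, against 27.7% of all genes. These were 2 Or, 4 Gr, 1 Ir and 2 Obp genes, and the remaining 221 members had no IDR summit in either window.

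The low share was not limited to the strongest peaks. In the pooled relaxed list 21 members (9.13%) had an entry within 500 bp of a TSS, against 53.4% of all genes. In this list the members were spread evenly over the families, with 5 Or, 5 Gr, 6 Ir and 5 Obp genes. Replicate 2 alone gave 26 members (11.3%) against 50.3%, and replicate 3 alone gave 23 (10%) against 54.1%. The families were less even there, from 8.47% (Or) to 15.7% (Obp) in replicate 2 and from 6.67% (Gr) to 15.7% (Obp) in replicate 3. Over the span the members with an entry numbered 66 (28.7%) in the pooled list, 83 (36.1%) in replicate 2 and 70 (30.4%) in replicate 3. The same counts over all genes were 72.9%, 74.3% and 72.3%. Each family lay below the background in every list and window, as the plot of shares shows for the IDR and pooled lists.

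**Figure D1:**
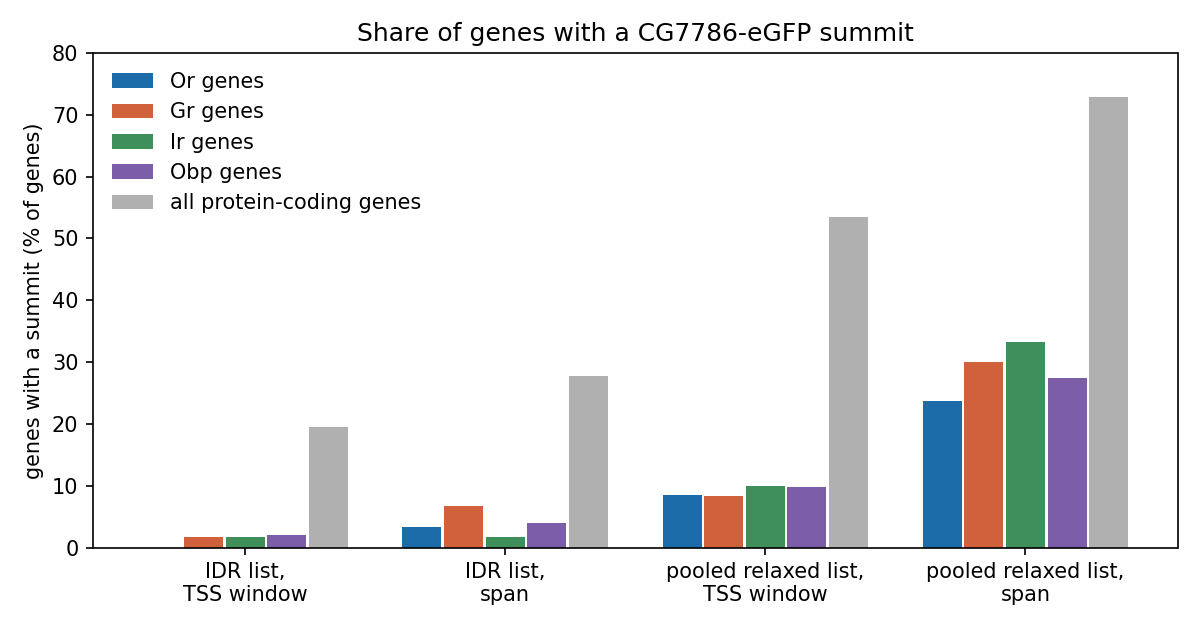
Share of genes (%) with a summit of CG7786-eGFP in the IDR list and the pooled relaxed list, in the 500 bp TSS window and in the span, for the 4 families and for all 13945 protein-coding genes. Every family bar is lower than the grey bar of all genes, and the Or bar for IDR summits at a TSS is at 0.

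Reading the lists deeper narrowed the ratio without closing it. Among the 2000 strongest pooled entries 2 members (0.87%) and 11.1% of all genes had a summit at a TSS. At 10000 entries these were 9 members (3.91%) and 34.8%, and at 20000 entries 15 members (6.52%) and 45.8%. The share of all genes was 14.9 times that of the members at 4045 entries and 5.85 times at 30000. In replicate 2 the same ratio went from 22.1 to 4.45, and in replicate 3 from 14.8 to 5.41. The entries added at the bottom of a list are weak: the −log10 q-value of the pooled entries at member TSSs ran from 0.05 at Ir67a to 3.91 at the IDR summits. Where a gene of the whole set had a pooled entry, the median rank of its strongest was 6260, against 14811 for the members.

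**Figure D2:**
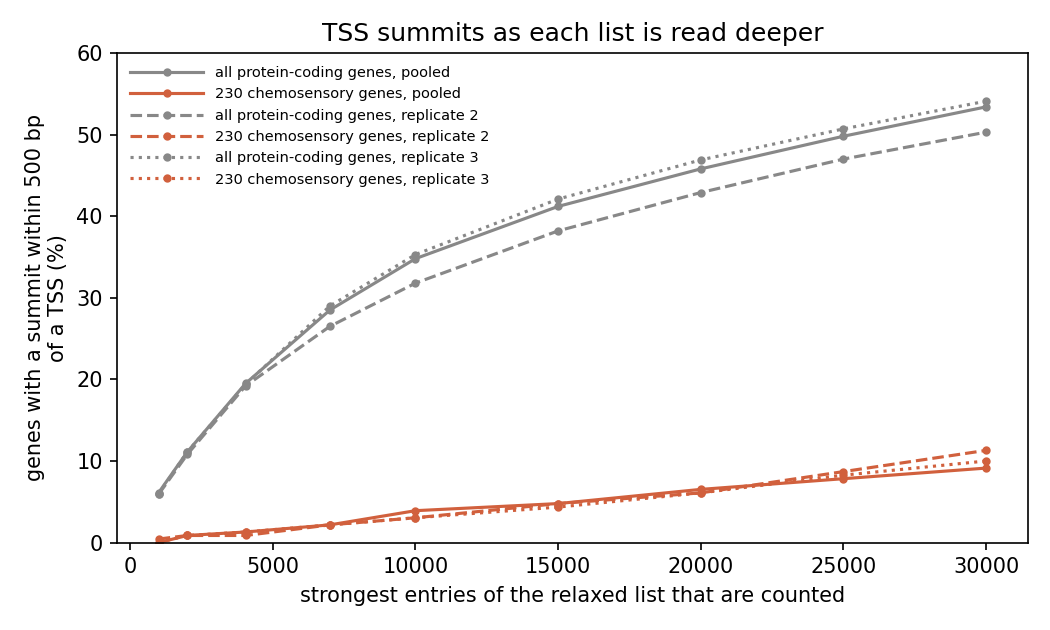
Share of genes (%) with a summit within 500 bp of a TSS against the number of strongest entries counted, for the pooled, replicate 2 and replicate 3 relaxed lists. The lines of the 230 chemosensory genes stay under 12% in all 3 lists, while those of all genes pass 50%.

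The members differ from other genes in ways that bear on such counts. Their median length was 1498.5 bp against 2166 bp, 209 of them (90.9%) had 1 TSS against 73.5% of all genes, and 173 (75.2%) shared no TSS window with another gene against 57.1%. Among genes with 1 TSS and no shared window, 0 of 158 members had an IDR summit at the TSS, against 6.73% of such genes. In the pooled list 13 of these 158 (8.23%) had an entry, against 33.6%. Among genes under 5000 bp long 9 of 224 members (4.02%) had an IDR summit in the span, against 22%. The members stayed below the background in each of these groups of like genes.

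Many member genes are annotated without a leader. For 139 members (60.4%) the first annotated base of the gene is the start codon itself, with no leader before it, against 3.69% of all genes. This held for 43 Or, 40 Gr, 49 Ir and 7 Obp genes, so the windows of most receptor genes are placed from the start codon, and where their transcripts begin was not measured here. Among the 91 members with an annotated leader, 1 (1.1%) had an IDR summit at a TSS against 20.1% of such genes, and 9 (9.89%) a pooled entry against 55%. With 5000 bp of upstream sequence in the span, 25 members (10.9%) had an IDR summit, against 35.2% of all genes. Short sequences in the TSS window occurred once in the genome for most members: in 228 of the 230 at least 90% of the 32-base words were unique, and Or19a and Or19b, near-identical copies, had 16.3%.

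The rise in summits at promoters was far smaller or missing in the members. Over all genes the IDR list had 15.4 summits per 100 genes in the 500 bp before the 5′ most TSS, 2.23 in the 500 bp before that and 2.25 between 1000 and 1500 bp before the TSS. The members had 1.3, 0.435 and 2.17 per 100 in these bins, from 3, 1 and 5 summits, too few to set one bin above another. In the pooled list all genes rose to 40.5 per 100 in the last 500 bp before the TSS from 17.8 in the 500 bp before that. The members had 3.91 per 100 in the last 500 bp and 10.9 in the bin before it, so in this list their level was lower at the promoter than just upstream of it.

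**Figure D3:**
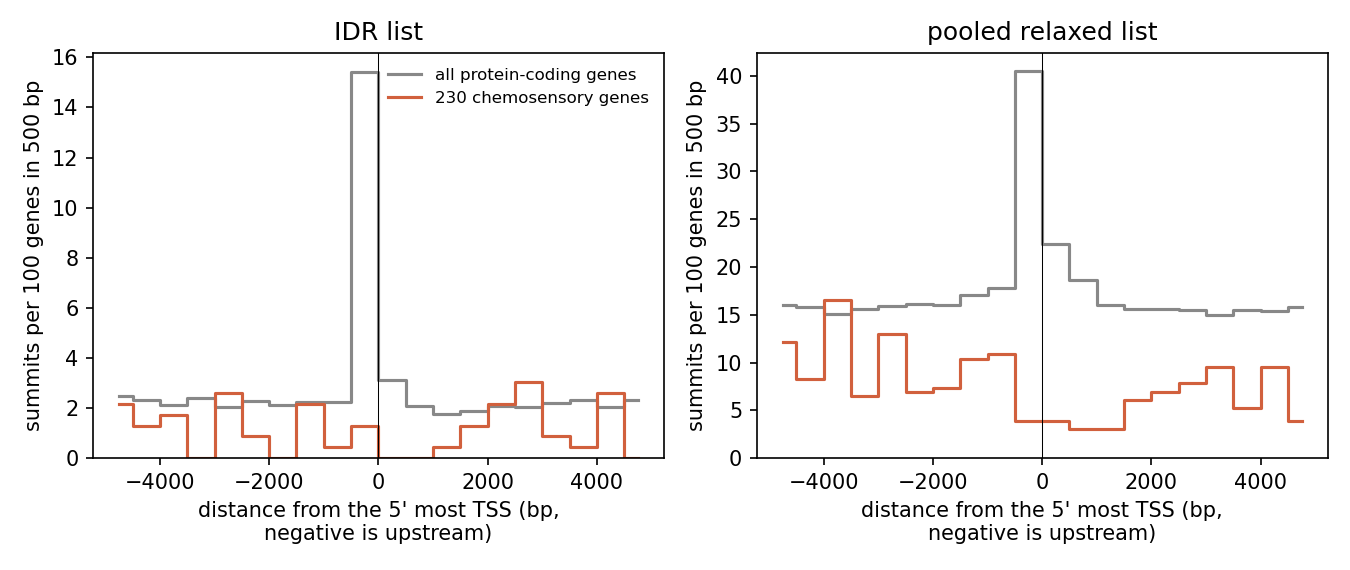
Summits per 100 genes in bins of 500 bp by distance from the 5′ most TSS (negative is upstream), in the IDR list and the pooled relaxed list. All genes reach 15.4 and 40.5 per 100 just upstream of the TSS, where the 230 chemosensory genes stand at 1.3 and 3.91.

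Gene bodies were low as well. The members' coding exons cover 292.8 kb and held 0 IDR summits, and their introns cover 201.6 kb and also held 0. Over all genes coding exons had 0.964 IDR summits per Mb and introns 31.4 per Mb, and at the exon density a count of 0 in 292.8 kb says little. Ir41a (104437 bp long) and Ir40a (24851 bp) hold most of the members' intron sequence. In the pooled list the members' coding exons had 78.6 entries per Mb against 245 over all genes, and their introns 19.8 against 223. Without Ir41a and Ir40a the introns cover 77.6 kb, and the same 4 pooled entries come to 51.5 per Mb. A count of 0 IDR summits in so short a sequence says little as well. Replicate 2 gave 130 against 311 per Mb in coding exons and replicate 3 gave 64.9 against 187. The 2000 bp upstream outside gene bodies had 31.6 IDR summits per Mb for members, against 154 over all genes and 30.2 over the whole arms. The members' value rests on 7 summits. In the relaxed lists their upstream sequence had 167 (pooled), 167 (replicate 2) and 180 (replicate 3) entries per Mb, below the 224 of the whole arms, where all genes had 502, 433 and 525.

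All 9 IDR summits in member spans lay upstream of the gene, and 7 of the 9 were nearer to the TSS of another protein-coding gene. Of those 7, 5 lay within 500 bp of the other gene's TSS and 4 within 200 bp. The signal values of the 9 ran from 82.2 to 193.4 with a median of 130.5, next to a median of 130.1 over the whole IDR list, whose range was 79.5 to 2909. Of the 9, 5 were over the overall median, and 6 ranked 4045 or better in both replicates. The counts of the 9 by nearest gene and by rank in both replicates have no matching share over all genes or the whole IDR list here. The distances of the members just inside and just outside the 500 bp window were 277 bp (Ir60e) and 749 bp (Or88a).

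Among the odorant-binding proteins, Obp99b gave the clearest case of a promoter summit. The gene lies at 3R:29716254-29716896 on the minus strand, and its peak, 3R:29716921-29717324, had its summit 227 bp upstream in intergenic sequence. The IDR signal value was 139.0 (rank 1835), with 61.52 (rank 1629) in replicate 2 and 80.74 (rank 1928) in replicate 3. The nearest other protein-coding TSS, that of CG15506, lay 1540 bp away. Obp99c, a further secreted odorant-binding protein gene of the same region (3R:29685736-29689311, minus strand), had its summit 1394 bp upstream in the peak 3R:29690503-29690906. That summit had a signal value of 93.1 (rank 3261), with 41.39 (rank 3107) in replicate 2 and 52.4 (rank 3537) in replicate 3. The nearest other TSS, that of dmrt99B, a doublesex-related factor gene, lay 1886 bp away. Both replicates placed each of these 2 summits among their 4045 strongest.

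Among the gustatory receptors, the carbon dioxide receptor pair had the highest pooled signal values at a TSS. Gr63a and Gr21a are expressed together and form the antennal carbon dioxide receptor. Gr63a (3L:3894999-3896603, minus strand) had an IDR summit 243 bp upstream in the peak 3L:3896644-3897047, and the TSS of Lamtor4, which encodes a Ragulator subunit, was 54 bp from it. Its signal value was 101.5 (rank 2914), with 34.13 (rank 4223) in replicate 2 and 60.89 (rank 2880) in replicate 3, so it was in the top 4045 of replicate 3 only. Gr21a (2L:780482-782885, plus strand) had no IDR summit but a pooled entry with a signal value of 48.9 (rank 7746). The entry lay in an annotated leader exon of Gr21a, 259 bp upstream of the second of its 2 TSSs, and the nearest other gene's TSS was 1844 bp away. Replicate 2 had it at rank 11973 (signal value 20.5) and replicate 3 at rank 8645 (25.8). By pooled signal value at a TSS the pair held the top 2 places of the 60 Gr genes, with Gr39b close behind Gr21a (47.6). In replicate 2 the order of these turned, with Gr39b at 31.6 (rank 4862) ahead of Gr21a, while in replicate 3 Gr21a was ahead.

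The other gustatory receptors with a summit had it farther upstream. Gr39b (2L:21367908-21369706, minus strand) had an IDR summit 1331 bp upstream in the peak 2L:21370835-21371238, 190 bp from the TSS of CG8665. Its signal value was 136.4 (rank 1875), with ranks 1769 and 2171 in replicates 2 and 3. A second, weaker pooled entry lay 358 bp upstream of Gr39b at rank 8050, and the replicates had it far apart, at rank 4862 in replicate 2 and 20326 in replicate 3. Gr97a (3R:26965124-26966485, minus strand) had its summit 1340 bp upstream (peak 3R:26967623-26968026) in an intron of CG5521, with a signal value of 87.9 (rank 3538) and ranks 3030 and 4802. Gr5a (X:5680617-5682488, plus strand), which detects trehalose, had its summit 1455 bp upstream (peak X:5678960-5679363) in an intron of Tre1, a G protein-coupled receptor gene. That summit had a signal value of 82.2 (rank 3877), with ranks 3566 and 4533. Gr97a and Gr5a were thus among the 4045 strongest of replicate 2 and not of replicate 3.

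Taste receptors grouped by what they detect gave no further TSS entries. The 9 sugar receptor genes (Gr5a, Gr43a, Gr61a and Gr64a to Gr64f) had 0 TSS entries in the IDR, pooled, replicate 2 and replicate 3 lists. The same held for the bitter receptor genes Gr32a, Gr33a and Gr66a, which take part in most bitter-sensing neurons, and for Gr28b, a receptor gene linked to warmth and light. With 50.3% to 54.1% of all genes holding an entry in the relaxed lists, these 13 genes are a small sample of a family with few entries.

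Both odorant receptor genes with an IDR summit had it outside the TSS window. Or9a (X:10458186-10459676, minus strand), an antennal receptor gene, had the summit 1024 bp upstream in the peak X:10460611-10460747, 36 bp from the TSS of Neb-cGP. Its signal value was 174.8 (rank 1251), with 73.62 (rank 1169) in replicate 2 and 97.64 (rank 1413) in replicate 3. Or88a (3R:14109445-14110823, plus strand) had the summit 749 bp upstream in the peak 3R:14108494-14108897, 375 bp from the TSS of CG12402. Its signal value was 130.5 (rank 2012), with 45.16 (rank 2735) in replicate 2 and 88.32 (rank 1666) in replicate 3. Both summits were in the top 4045 of each replicate, and both were nearer to another gene than to the receptor gene.

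In the relaxed lists the odorant receptor entries did not repeat. No Or gene had entries of both replicates within 200 bp of each other at a TSS. The strongest pooled entry at an Or TSS was that of Or45b, a larval receptor gene, with a signal value of 38.7 (rank 11154) in its gene body 341 bp from the TSS. Replicate 3 had it at rank 8315 and replicate 2 had no entry there. Next came Or67c, an antennal receptor gene, at rank 18542, and Or49a, which detects odours of parasitoid wasps, at rank 22726. The larval receptors, whose neurons form in the embryo, had 0 IDR summits at a TSS in 23 genes, against 19.5% of all genes. They had 3 pooled entries (13%; 53.4% of all genes), 1 entry in replicate 2 (50.3%) and 3 in replicate 3 (54.1%). The pheromone receptor genes Or47b, Or65a, Or67d and Or88a had no TSS entry in any list, and are a small sample of a family with few entries. Of the food odour receptor genes Or22a, Or42a, Or42b, Or56a and Or59b, Or42a had 1 entry, at rank 29219 of the 30000 of replicate 2.

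Ir60e carried the strongest summit of all members. It is a divergent ionotropic receptor gene on the minus strand of 2R:24529554-24531272, and its peak at 2R:24531347-24531750 had the summit 277 bp upstream. The TSS of the uncharacterised gene CG13585 was 45 bp from that summit. The signal value was 193.4 (rank 1037), with 92.3 (rank 765) in replicate 2 and 97.92 (rank 1407) in replicate 3. The co-receptor genes Ir8a, Ir25a, Ir76b and Ir93a, which most Ir complexes need, had no TSS entry in any list. Only 10% of all Ir genes had a pooled entry at a TSS, so 0 of 4 says little about co-receptors. Ir21a, needed for cool sensing, had a pooled entry at rank 14811 (signal value 32.8), 45 bp inside the gene, with rank 12616 in replicate 3 and no entry in replicate 2. Ir40a, needed for dry sensing, had 1 at rank 17526 of replicate 2 (17.2) only, and Ir68a, needed for moist sensing, had none. Each of these 2 entries came from 1 replicate.

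Some weaker entries recurred in both replicates. Within 200 bp of each other, entries of replicates 2 and 3 occurred at the TSSs of 9 members (3.91%), against 38.6% of all genes. By family these were 0 Or, 3 Gr, 2 Ir and 4 Obp genes. Besides the 3 with an IDR summit they were Obp83cd, Obp83g, Obp47b, Gr21a, Gr39b and Ir67c. Obp83cd and Obp83g, members of 1 cluster of secreted odorant-binding proteins on 3R, had pooled signal values of 59.2 (rank 5938) and 59.0 (rank 5970), with summits 203 and 273 bp upstream. Their ranks were 11444 and 5708 in replicates 2 and 3 for Obp83cd, and 16916 and 5478 for Obp83g, so both were higher in the order of replicate 3. Obp47b had an entry 83 bp inside the gene, in sequence shared with an untranslated exon of CG7741, at pooled rank 7693. Ir67c, a divergent receptor gene, had an entry 300 bp upstream at pooled rank 8197 (signal value 47.1), at ranks 7872 and 10067. In all, 40 of the 230 members had an entry at a TSS in at least 1 relaxed list, 10 in all 3, and 190 in none. These combined counts have no matching share over all genes here. In the single lists 50.3% to 54.1% of all genes had an entry at a TSS.

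**Figure D4:**
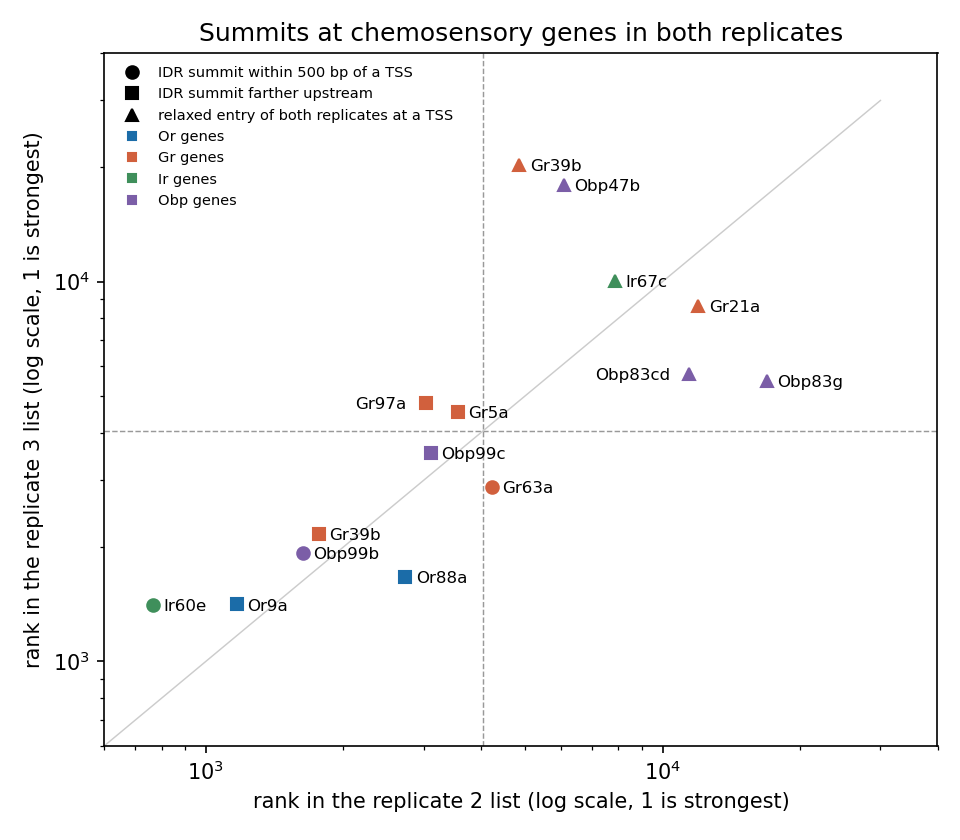
Rank by signal value in the replicate 2 list (x axis) and the replicate 3 list (y axis), both on log scales with 1 the strongest, for the 9 IDR summits in member spans and for the 6 further TSS entries that both replicates share. Dashed lines mark rank 4045 and the grey line equal ranks; 6 of the 9 IDR summits lie within both dashed lines, and the 6 further entries lie outside both.

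Of the 9 IDR summits in member spans 7 were nearer to another gene, a count with no matching share over all genes here. Counting only summits whose nearest protein-coding TSS is the gene's own, 1 member (0.435%, Obp99b) had an IDR summit within 500 bp, against 14.3% of all genes. In the pooled list 18 members (7.83%) did, against 45.7%. The protein-coding genes around the members were close to the background: 10 of 63 within 1000 bp of a member (15.9%) had an IDR summit at a TSS, 44 of 207 between 1000 and 5000 bp away (21.3%), and 19.9% of those more than 100 kb away. Among the adjacent genes with a summit were yps, a Y-box protein gene (196.3), RpS27A, a ribosomal protein gene (148.2), and p53 (101.9). Of the members 32 lie inside another protein-coding gene, in 31 hosts of which 6 (19.4%) had an IDR summit at a TSS, next to 19.5% of all genes. Of these 32 members 0 had an IDR summit at their own TSS, next to 1.3% of all members, so nothing particular to nested members was seen. Gr94a in p53 and Or85a in Poxm, a muscle regulator gene, are of this kind.

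Most clusters of these genes held no summit. With gaps of at most 10000 bp, 83 members fall into 22 clusters of 3 or more genes covering 179.4 kb. Of these clusters 21 held no IDR summit, and the 1 summit lay in the cluster from Ir60b to Ir60e, 6 bp from the TSS of a gene outside the 4 families (signal value 151.4, rank 1584). The stronger summit at Ir60e lies beyond the end of that cluster. The 1 summit in the clusters comes to 5.58 IDR summits per Mb against 30.2 over the whole arms, and for pooled entries 61.3 against 224 per Mb. The clusters run from the first to the last base of their genes and leave out the outer promoters. The whole arms are therefore not a matched background, and the count of clusters without a summit has none beside it. The 6 sugar receptor genes Gr64a to Gr64f and the 6 genes from Ir7b to Ir7g, the latter over 22029 bp, held 0 pooled entries between their first and last base. Of the 11 pooled entries in the 22 clusters, 6 lay in the Gr93a to Gr93d cluster.

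Distance to the nearest IDR summit differed between the families. The median from a member's closest TSS was 16580 bp (quartiles 7252 and 41740), against 7602 bp (1540 and 21540) over all genes. It was 36550 bp for Or, 12770 for Gr, 14900 for Ir and 15560 for Obp genes, and 51 Or genes (86.4%) had none within 10 kb against 43.3% of all genes. Among genes with 1 TSS and no shared window the medians were 19030 bp for members and 12890 bp for all. The farthest were Ir40a, 330721 bp from an IDR summit, Or67c, 274432 bp, and Or67d, 245934 bp. Genes of 1 cluster share most of such a distance, so the family medians rest on fewer independent places than genes.

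**Figure D5:**
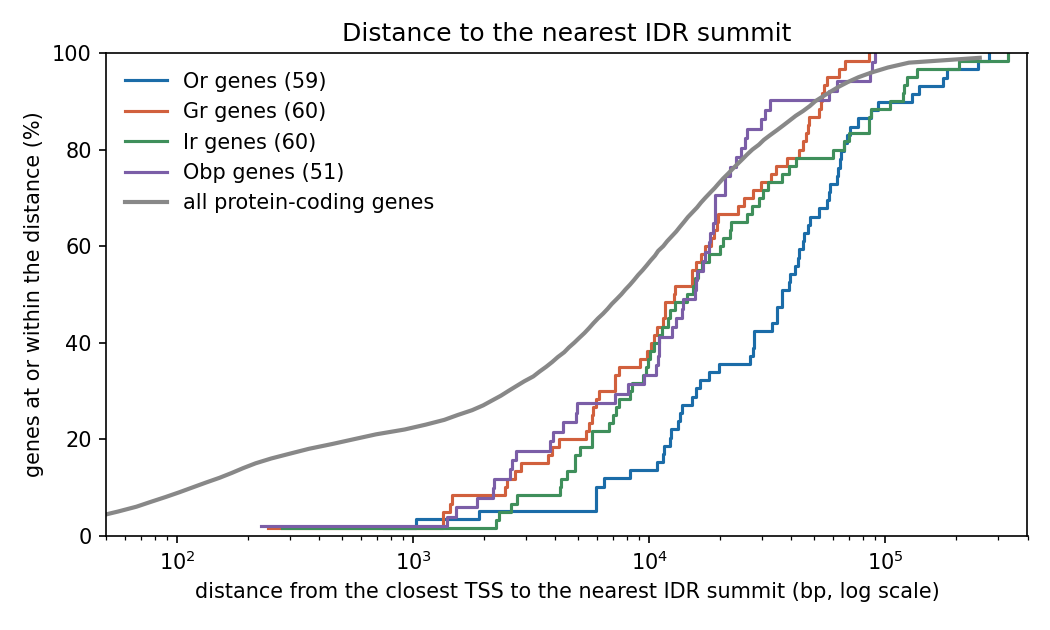
Cumulative share of genes (%) by distance from the closest TSS to the nearest IDR summit (bp, log scale) for each family and for all protein-coding genes. The Or line lies farthest to the right, with a median of 36550 bp against 7602 bp for all genes.

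Promoter sequence of the members differed from that of other genes in the motifs that mark broadly active promoters. In the 300 bp from 250 bp before to 50 bp after the 5′ most TSS, the DNA replication element TATCGATA occurred in 1 member (0.435%, Gr68a) against 9.36% of all genes. Motif 1, GGTCACAC, occurred in 0 members against 7.7%. TATAAA on the gene strand occurred in 107 members (46.5%) against 32.1%, but the families differed. It was in 40 Or (67.8%), 32 Obp (62.7%) and 22 Ir genes (36.7%), and in 13 Gr genes (21.7%), below the share of all genes. The initiator TCAGTT on the gene strand was at 18.7% against 17.9%. GAGAG on either strand was at 20.9% against 29.7%, and CAGCTG, an E-box, at 9.57% against 17.7%. None of these letter strings contains another.

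The same motifs were counted over all genes in promoters with and without an IDR summit at a TSS. TATCGATA was in 15.3% of promoters with such a summit and 7.92% of the others, and GGTCACAC in 10.8% and 6.96%. CAGCTG was in 23.4% and 16.3%. TATAAA was in 27.7% of promoters with such a summit and 33.2% of the others, and TCAGTT in 12.4% and 19.3%. GAGAG was in 29.6% and 29.8%, with no spread, although members held it less often. The sites known for PAR-type factors were rare in all sets: TTATGTAA occurred in 3 members (1.3%; Gr36b, Or59a and Or85c) against 2.15% of all genes, and TTACGTAA in 1 (0.435%, Ir94g) against 0.452%. Of all IDR windows 1.58% hold the first site and 0.371% the second. The Gr63a summit window holds GGTCACAC, as do 2.67% of IDR windows. That summit is 54 bp from the TSS of Lamtor4, and the match lies outside the Gr63a promoter counted here. Where the annotation starts a gene at its start codon, the 300 bp are placed from that codon. Median GC content of this sequence was 39.3% in members and 38.0% in all genes. A match is a description of letters and not of binding.

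Genes that act with the receptors were read from 4 lists of 77 genes in all. Of these, 8 (10.4%) had an IDR summit at a TSS, against 19.5% of all genes, and 30 (39%) a pooled entry, against 53.4%. Perireceptor and other chemosensory proteins, among them Orco, lush, the membrane proteins Snmp1 and Snmp2 and several pickpocket channels, were close to the receptor genes, with 0 of 36 IDR summits and 5 pooled entries (13.9%). Orco was 38729 bp and lush 6174 bp from the nearest IDR summit. Of 20 regulators of sensory neuron identity 2 (10%) had an IDR summit at a TSS, lola (signal value 357.0, rank 316) and Dll, the appendage selector gene (82.9, rank 3829), and 8 (40%) a pooled entry. Of 12 signalling genes 3 (25%) had an IDR summit at a TSS: Ac13E, an adenylyl cyclase gene (196.6), Galphaq (142.5) and Ggamma1 (121.2). The Ggamma1 summit lay 28 bp from its own TSS and 1 bp from that of MrgBP. The Galphaq summit lay 166 bp from its own TSS and 166 bp from that of CG45086.

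The MMB/dREAM complex is known to restrict expression of the carbon dioxide receptor genes. Of its 9 subunit genes 3 (33.3%) had an IDR summit at a TSS. A pooled entry was found at 8 (88.9%), against 53.4% of all genes. Dp, the E2F partner gene, had a signal value of 571.7 (rank 109), with rank 108 in each replicate and the summit 213 bp from its TSS. E2f2 had 97.6, with the TSS of Mpp6 19 bp from the summit, and Caf1-55, a histone-binding subunit gene, had 90.8. For IDR summits at a TSS, the shares of the signalling (25%) and MMB/dREAM genes (33.3%) were above the 19.5% of all genes. Those of the regulators and of the receptor, binding protein and perireceptor genes were below it. Lists this short give no firm share, and no test was made on them.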

How the data were processed

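Peak lists of 2 ChIP-seq libraries of 1 group were used. Per the labels, relaxed lists were called on each replicate and on the pooled alignments against a control, and the IDR list was derived from them; 4 lists on dm6 were used and 4 on dm3 were not. Control reads were not analysed here. Aligner, peak caller and IDR threshold: not given in the sources used here. Within each list, the signal value is a score of the authors' caller, with 1 scale per list, used only to rank and describe. The deposited −log10 q-value was used as a description, and the deposited summit offset to place summits. No column held counts, so depth and counting intervals are unknown.

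The IDR list was checked to be the 4045 strongest of the 30000 pooled entries. Genes came from Ensembl release 115 and sequence from RefSeq's Release 6 assembly, the build of the dm6 lists; all positions are 1-based. Of 13 sequence windows read, 3 hold annotated UTR bases and are not printed, and none was read from arm 2R. Windows, counts, distances and motif matches were computed with Python 3.11.15, numpy 2.4.6 and pandas 2.3.3, figures with matplotlib 3.10.9, and the window counting was tested on simulated data. Shares of members stand beside the same share over all genes; with 1 group there is no test between conditions and no p-value is given. The naming rule uses no measured value, but this group of genes, the lists and the motifs were proposed with earlier results of these data known.

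Named genes are the members with an IDR summit in either window, the 3 of each family with the highest pooled signal value at a TSS, and members with a well-studied role; those with entries of both replicates, the farthest and the host, cluster and neighbour examples were added after their values were seen. The alternatives were the TSS window, the upstream length, the nearest TSS alone, the 2022 strongest IDR peaks, each replicate's list, shared windows, annotated leaders and the motif window.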

Additional observations from a re-analysis of the deposited data

How the results depend on the processing

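No paired analysis was possible because there is 1 group of 2 libraries. The count of 3 members with an IDR summit at a TSS was 1 with the nearest TSS only (14.3% of all genes), 1 of 173 among members that share no TSS window (10.5%), 0 of 158 among those that also have 1 TSS (6.73%) and 1 of 91 among members with an annotated leader (20.1%). The count of 9 in the span was 0 with the gene body alone (11% of all genes), 4 with 1000 bp upstream (25.1%), 25 with 5000 bp (35.2%) and 5 among the 2022 strongest IDR peaks (16.7%). The count of 21 with a pooled entry at a TSS was 9 among the 10000 strongest entries (34.8%), 12 with a 250 bp window (42.8%), 41 with a 1000 bp window (62.8%) and 9 of 91 among members with an annotated leader (55%). The 8 pathway genes became 13 with a 1000 bp window (22.4%), and the median distance of 16580 bp became 30360 bp among the same 2022 peaks (16560 bp over all genes). From 500 bp before to 100 bp after the TSS, TATAAA was in 57.4% of members (47.8% of all genes), TCAGTT in 25.2% (26.0%), GAGAG in 38.7% (47.0%) and CAGCTG in 17% (27.3%). TCAGTT was the only motif whose members moved to the other side of the background.

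With the 4045 strongest entries of 1 replicate in place of the IDR list, the TSS count ranged from 2 to 3, the span count was 9 and 9, and the pathway count ranged from 7 to 9. In the span, 8 of the 9 members were called in replicate 2 and 7 in replicate 3. The relaxed TSS count ranged from 23 to 26 between the replicates. Members stayed below the background in every one of these counts. The cause of these differences was not tested. The analyses by unshared window with 1 TSS, by annotated leader and of the pathway windows were chosen after seeing the data. Depth is unknown, so an absent entry does not show an absence of binding, least of all in a small share of the embryo's cells. Dixon's rule for outlying samples could not be used on 2 libraries.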
